A study of Mus musculus with 20 samples.

Results

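The antigen presentation genes described here are 10 genes in 2 groups of 5: Tap1, Tap2, Tapbp, B2m and Nlrc5 of the MHC class I pathway, and H2-Aa, H2-Ab1, H2-Eb1, Cd74 and Ciita of the MHC class II pathway. They were picked by symbol, each represented by the brightest of the probe sets that the platform's annotation gives that single symbol. They are 10 of 18193 genes represented in this way. A gene was tested if it exceeded 16 intensity units on at least 5 arrays, and 9 members were among the 8774 genes that did so. Ciita never exceeded 4.01 units in any mouse, so it has no test. Tap2 passed the minimum only through mice given LPS, since all 10 of its vehicle values lay under 16 units.

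Liver RNA was measured on 20 Affymetrix arrays, 1 per male mouse of mixed BL6/SV129 background aged 50 to 60 days. The 4 groups of 5 were MCAD-/- mice given LPS, wild type mice given LPS, MCAD-/- mice given vehicle and wild type mice given vehicle. MCAD, or medium-chain acyl-CoA dehydrogenase, is the product of Acadm and catalyses a first step of fatty acid oxidation in mitochondria; MCAD-/- mice lack it. How the allele was made is not known from the sources used here. LPS, the lipopolysaccharide of bacterial outer membranes, is a strong inflammatory stimulus and was dosed at 100 µg per 20 g body weight. All mice, vehicle-treated ones included, were fasted for 12 h after the injection, so none of the 4 groups shows the fed liver. The series' design calls the mice of a group biological replicates. Acadm ranged over 14.3 to 218 units in MCAD-/- mice given LPS and 1450 to 2375 units in wild type mice given LPS, and over 9.03 to 80.2 units in MCAD-/- and 3106 to 4022 units in wild type mice given vehicle, so the genotype labels hold in all 20 mice. Between 30.2% and 32.3% of all probe sets exceeded 16 units on each array. The log2 ratio of actin's 3′ to its 5′ control probe sets, which rises as RNA degrades, was 3.69 in wild type LPS replicate 4 and 3.18 in wild type vehicle replicate 3, and no higher than 2.34 on any other array.

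MHC class I molecules display peptides made inside a cell to cytotoxic T cells and are found on nearly all nucleated cells, hepatocytes included. Peptides cut by the proteasome are carried into the endoplasmic reticulum by the transporter TAP, where tapasin holds the transporter beside an empty class I molecule made of a heavy chain and beta-2 microglobulin. MHC class II molecules display peptides from material taken up from outside to helper T cells, and in liver they are mainly found on Kupffer cells, dendritic cells, B cells and sinusoidal endothelium. NLRC5 is the master transactivator of class I genes and CIITA that of class II genes. Neither binds DNA itself, and both act through factors bound at the X and Y boxes of the promoters. In whole liver RNA, fewer cells of a type and less RNA per cell cannot be told apart.

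Promoter letters are shown for 4 members, a pair from each class, because X and Y boxes are elements that promoters of both classes are known to share. Each is the 250 bases before the annotated start, 5′ to 3′ on the gene's strand, from RefSeq's GRCm38.p6 annotation. Capitals mark a Y box (CTGATTGG, or CCAATCAG on the other strand) or the core of an interferon-stimulated response element (GAAA, then NN, then GAAA).
Tap1: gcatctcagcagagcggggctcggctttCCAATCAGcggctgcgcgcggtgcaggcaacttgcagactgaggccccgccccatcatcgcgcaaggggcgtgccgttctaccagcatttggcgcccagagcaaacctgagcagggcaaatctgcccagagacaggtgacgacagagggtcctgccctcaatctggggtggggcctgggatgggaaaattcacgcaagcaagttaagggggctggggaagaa
B2m: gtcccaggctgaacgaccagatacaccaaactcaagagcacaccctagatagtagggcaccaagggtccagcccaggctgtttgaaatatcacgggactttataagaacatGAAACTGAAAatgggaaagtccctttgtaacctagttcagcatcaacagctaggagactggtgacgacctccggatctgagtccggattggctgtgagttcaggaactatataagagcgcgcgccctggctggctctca
H2-Aa: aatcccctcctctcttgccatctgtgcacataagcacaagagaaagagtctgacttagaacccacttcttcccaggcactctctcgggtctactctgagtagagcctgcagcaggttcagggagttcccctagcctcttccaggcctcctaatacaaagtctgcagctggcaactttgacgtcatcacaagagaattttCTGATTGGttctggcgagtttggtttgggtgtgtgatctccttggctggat
H2-Eb1: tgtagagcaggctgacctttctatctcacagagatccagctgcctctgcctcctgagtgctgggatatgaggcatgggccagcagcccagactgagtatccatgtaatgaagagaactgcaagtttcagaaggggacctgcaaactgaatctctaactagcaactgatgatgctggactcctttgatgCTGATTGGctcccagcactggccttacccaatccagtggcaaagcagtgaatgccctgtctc
Tap1 lies at chr17:34187306-34187555 (plus strand), B2m at chr2:122147437-122147686 (plus strand), H2-Aa at chr17:34287824-34288073 (minus strand) and H2-Eb1 at chr17:34305617-34305866 (plus strand). The Y box stands 51 to 44 bases before the start in H2-Aa and 62 to 55 bases before it in H2-Eb1. In Tap1 its letters lie on the other strand and farther out, 222 to 215 bases before the start. B2m has no exact Y box, and has the response element core 139 to 130 bases before its start. Promoters were also available for Tapbp, which held neither motif, and 5 members in all were matched. The gamma-activated site (TTCNNNGAA) was in none of the 5. Over 32851 mouse promoters of the same length, read on both strands, the Y box letters occurred in 3.83%, the response element core in 2.98% and the gamma-activated site in 7.02%. A shorter motif inside the Y box, ATTGG, occurred in 33.8% of them and in all 5 members, where it overlaps the Y box in Tap1, H2-Aa and H2-Eb1. These are matches of letters and not measured binding.

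LPS raised most of the class I genes in both genotypes and left the class II genes without a common direction. In MCAD-/- mice, 4 of 5 class I members were higher with LPS and 1 did not pass, where 38.1% of all tested genes were higher and 65.7% passed in either direction. In wild type mice the same 4 members were higher, where 40% of all tested genes were higher and 64% passed in either direction. The median log2 change of the class I members was 1.61 in MCAD-/- and 1.80 in wild type mice, beside 0.135 and 0.176 for all tested genes in those genotypes. One of the 4 higher members, Tap2, could be tested only because the mice given LPS exceeded the minimum, which leaves 3 of 4 others in each genotype. The medians were the same with Tap2 at the bound given further on. Of the 4 tested class II members, 1 was lower and none higher in MCAD-/- mice, where 27.6% of all tested genes were lower. In wild type mice 1 was lower, where 24% of all tested genes were, and 1 was higher. Their median log2 change was -0.42 in MCAD-/- and 0.15 in wild type mice. Adjusted p-values come from limma with Benjamini-Hochberg adjustment over all 8774 tested genes, two-sided, with a threshold of 0.05.

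**Figure D1:**
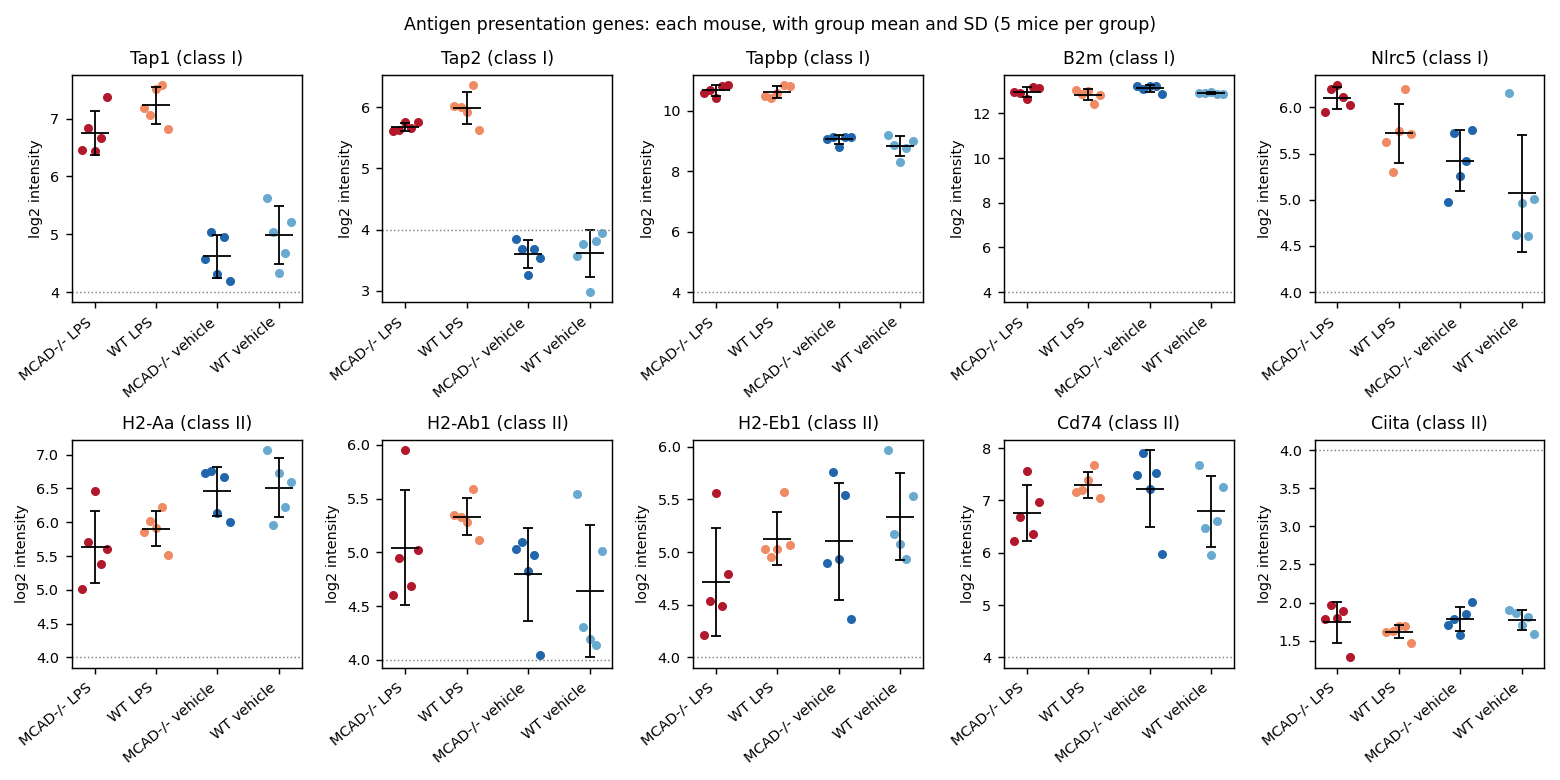
Each point is 1 mouse, on a log2 intensity axis that differs between panels; bars give the group mean and SD (n = 5), and the dotted line is 16 units. Tap1, Tap2 and Tapbp separate LPS from vehicle completely in both genotypes, the B2m groups overlap, and Ciita lies under 16 units throughout.

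Tap1 and Tap2 encode both subunits of the peptide transporter. Tap1 measured 87.8, 115, 86.8, 102 and 166 units in MCAD-/- mice given LPS, against 23.9, 32.7, 19.9, 31.0 and 18.4 units in MCAD-/- mice given vehicle. Wild type mice had 146, 134, 182, 192 and 113 units with LPS, against 49.6, 33.0, 20.0, 25.6 and 37.3 units with vehicle. Every mouse given LPS was above every vehicle mouse of its genotype. Tap1 was 4.41-fold higher with LPS in MCAD-/- (log2 change 2.14 ± 0.24 SE, adjusted p = 1.7e-07) and 4.77-fold higher in wild type mice (2.25 ± 0.24, adjusted p = 9.5e-08). The other 3 probe sets annotated to Tap1 never exceeded 16 units, so its change rests on 1 probe set.

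Tap2 measured 48.7, 49.4, 53.7, 50.4 and 53.9 units in MCAD-/- mice given LPS, a narrow range, and 65.0, 64.1, 60.6, 82.2 and 49.3 units in wild type mice given LPS. The 10 vehicle mice lay between 9.54 and 14.3 units in MCAD-/- and between 7.90 and 15.4 units in wild type. GCRMA draws dim probe sets towards a floor, so the change is given as a bound: Tap2 was at least 3.20-fold higher in MCAD-/- and at least 3.96-fold higher in wild type mice with LPS, counting the vehicle mice at 16 units (adjusted p of the limma fit 1.21e-09 and 2.07e-10 in those genotypes). Here too no mouse given LPS overlapped the vehicle mice.

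Tapbp encodes tapasin, which bridges the transporter and the class I molecule and helps select its peptide. It measured 1525, 1644, 1372, 1788 and 1842 units in MCAD-/- mice given LPS, against 539, 555, 447, 563 and 564 units in MCAD-/- mice given vehicle. In wild type mice it measured 1425, 1368, 1529, 1847 and 1789 units with LPS, against 583, 465, 313, 434 and 515 units with vehicle. The groups did not overlap in either genotype. The change was 3.06-fold in MCAD-/- (log2 1.61 ± 0.14, adjusted p = 8.18e-09) and 3.49-fold in wild type mice (1.80 ± 0.14, adjusted p = 1.97e-09). A second, dimmer Tapbp probe set moved the same way, by 1.86 in MCAD-/- and 1.26 in wild type mice on the log2 scale.

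B2m, the invariant light chain of every class I molecule, was the class I member that did not pass. It measured 8025, 7803, 6379, 9424 and 8953 units in MCAD-/- mice given LPS, against 9576, 8856, 9529, 9457 and 7492 units in MCAD-/- mice given vehicle. Wild type mice had 8534, 7452, 8163, 5517 and 7235 units with LPS, against 7610, 7730, 7929, 7420 and 7589 units with vehicle. The groups overlapped in both genotypes. The log2 change was -0.15 in MCAD-/- (95% interval -0.41 to 0.10, adjusted p = 0.274) and -0.07 in wild type mice (-0.32 to 0.18, adjusted p = 0.634). The upper ends of both intervals lie below the changes of Tap1, Tap2, Tapbp and Nlrc5 in the same genotype. The second B2m probe set, also bright on all 20 arrays, changed by -0.22 in MCAD-/- and -0.15 in wild type mice on the log2 scale.

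Nlrc5, the class I transactivator, changed less than Tap1 and Tapbp, its 95% interval lying below theirs in both genotypes. It measured 61.8, 73.3, 75.8, 69.3 and 65.1 units in MCAD-/- mice given LPS, against 31.5, 52.7, 38.1, 42.7 and 54.2 units in MCAD-/- mice given vehicle, with no overlap. Wild type mice had 49.2, 39.4, 53.8, 73.7 and 52.4 units with LPS, against 71.2, 24.5, 31.3, 24.3 and 32.3 units with vehicle, where replicate 1 of the vehicle mice reached the LPS range. Nlrc5 was 1.60-fold higher in MCAD-/- (log2 0.68 ± 0.23, adjusted p = 0.0153) and 1.57-fold higher in wild type mice (0.65 ± 0.23, adjusted p = 0.0207). Its wild type value was 0.92 without vehicle replicate 1. It no longer passed without vehicle replicate 2 (0.53, adjusted p = 0.0636), vehicle replicate 4 (0.53, adjusted p = 0.0646) or LPS replicate 4 (0.53, adjusted p = 0.0644). In all, the groups of 4 class I members did not overlap in MCAD-/- mice, where 51.4% of all tested genes had groups that did not overlap, and those of 3 did not in wild type mice, where 46.1% did. Both counts include Tap2, which could be tested only because mice given LPS exceeded the minimum. Without it, Tap1, Tapbp and Nlrc5 remain in MCAD-/- mice. In wild type mice Tap1 and Tapbp remain but not B2m or Nlrc5, a share near that of all tested genes.

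**Figure D2:**
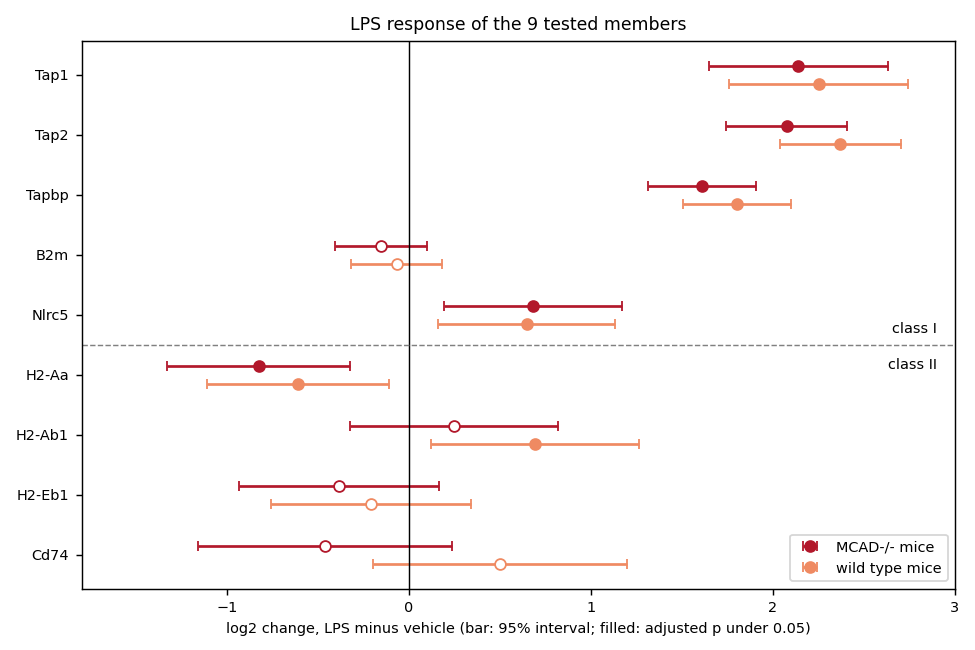
The log2 change with LPS (LPS minus vehicle) is plotted for the 9 tested members with its 95% interval, MCAD-/- above wild type, filled where the adjusted p was under 0.05. Tap1 and Tapbp lie between 1.61 and 2.25, the intervals of B2m include 0, and the class II members lie on both sides of 0. The points of Tap2 are as fitted against vehicle values under 16 units, so they depend on the floor.

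Among the class II chains, H2-Aa, the alpha chain of I-A, was lower with LPS in both genotypes. It measured 32.2, 52.2, 87.9, 41.9 and 48.5 units in MCAD-/- mice given LPS, against 106, 108, 70.3, 102 and 64.2 units in MCAD-/- mice given vehicle. In wild type mice it measured 57.7, 64.5, 60.2, 74.6 and 45.7 units with LPS, against 134, 62.2, 106, 74.7 and 96.5 units with vehicle. In MCAD-/- mice 4 of 5 mice given LPS lay below all vehicle mice, and in wild type mice 3 of 5 did. H2-Aa fell by 0.83 on the log2 scale in MCAD-/- (SE 0.24, adjusted p = 0.00523) and by 0.61 in wild type mice (SE 0.24, adjusted p = 0.0321). The wild type call was lost without any 1 of vehicle replicates 1, 3 and 5 and LPS replicates 1 and 5, with values of -0.47 to -0.60 and adjusted p of 0.0539 to 0.0996. With the mean of its 4 probe sets in place of the brightest, it was lost in both genotypes (-0.48, adjusted p = 0.054 in MCAD-/-, and -0.25, adjusted p = 0.317 in wild type mice), 2 of the 4 exceeding 16 units on at most 1 array.

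H2-Ab1, the beta chain that pairs with H2-Aa, did not follow it. It measured 24.4, 30.9, 61.9, 25.7 and 32.6 units in MCAD-/- mice given LPS, against 32.7, 34.2, 28.5, 31.4 and 16.5 units in MCAD-/- mice given vehicle. Among wild type mice it measured 40.6, 40.3, 38.9, 48.2 and 34.6 units with LPS, against 46.6, 19.8, 18.3, 17.6 and 32.3 units with vehicle. All groups overlapped, although vehicle replicate 1 alone brought wild type vehicle mice into the LPS range. The log2 change was 0.25 in MCAD-/- (95% interval -0.32 to 0.82, adjusted p = 0.436) and 0.69 in wild type mice (0.12 to 1.27, adjusted p = 0.0324). The wild type call was lost without any 1 of vehicle replicates 2, 3 and 4 and LPS replicates 1, 2 and 4, with values of 0.57 to 0.69 and adjusted p of 0.0503 to 0.0919.

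H2-Eb1, the beta chain of I-E, did not pass in either genotype. It measured 18.5, 23.2, 47.1, 22.5 and 27.7 units in MCAD-/- mice given LPS, against 29.8, 54.3, 30.6, 46.7 and 20.5 units in MCAD-/- mice given vehicle. In wild type mice it measured 32.6, 31.0, 32.7, 47.6 and 33.4 units with LPS, against 62.6, 36.2, 33.7, 30.6 and 46.3 units with vehicle. Both pairs of groups overlapped. The log2 change was -0.38 in MCAD-/- (95% interval -0.93 to 0.17, adjusted p = 0.208) and -0.21 in wild type mice (-0.76 to 0.34, adjusted p = 0.502). Without MCAD-/- LPS replicate 3 the MCAD-/- value was -0.59 and passed (adjusted p = 0.0434).

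Cd74 encodes the invariant chain, which fills the peptide groove of new class II molecules and escorts them to the compartments where peptides are loaded. It measured 74.5, 102, 189, 82.0 and 126 units in MCAD-/- mice given LPS, against 179, 239, 148, 184 and 63.0 units in MCAD-/- mice given vehicle. Among wild type mice it measured 143, 146, 168, 204 and 132 units with LPS, against 203, 89.2, 61.8, 98.0 and 152 units with vehicle. The groups overlapped, and the signs of the change differed: -0.46 in MCAD-/- (95% interval -1.16 to 0.24, adjusted p = 0.232) and 0.50 in wild type mice (-0.20 to 1.20, adjusted p = 0.201). The difference of the responses, MCAD-/- minus wild type, was -0.96 (95% interval -1.95 to 0.03) and did not pass (adjusted p = 0.267). Without MCAD-/- vehicle replicate 5 the MCAD-/- value of Cd74 was -0.77 and passed (adjusted p = 0.0285). Ciita, the class II transactivator, measured 2.43 to 3.92 units in MCAD-/- and 2.78 to 3.24 units in wild type mice given LPS, and 2.99 to 4.01 units in MCAD-/- and 2.99 to 3.74 units in wild type mice given vehicle. All 3 of its probe sets were under 16 units on every array, so no level or change of Ciita can be read here.

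Setting the classes side by side within each mouse, the mean log2 change of the 5 class I members from the wild type vehicle mean was taken, and that of the 4 tested class II members was subtracted from it. This difference was 2.04, 1.73, 0.66, 2.00 and 1.77 in MCAD-/- mice given LPS and 1.37, 1.20, 1.39, 1.16 and 1.41 in wild type mice given LPS. It was -0.16, -0.31, -0.07, -0.15 and 0.75 in MCAD-/- mice given vehicle and -0.33, 0.31, -0.04, 0.21 and -0.14 in wild type mice given vehicle. All 10 mice given LPS had positive values. The wild type groups did not overlap, while in MCAD-/- mice LPS replicate 3 lay below vehicle replicate 5. LPS replicate 3 had a class I mean of 1.22, the lowest of a narrow group range that reached 1.55, and a class II mean of 0.56, where the group's other 4 mice lay between -0.81 and -0.22. The class I mean includes Tap2, whose vehicle values lie under 16 units. Without Tap2 the difference was 0.43 to 1.85 in MCAD-/- and 0.88 to 1.23 in wild type mice given LPS, and -0.26 to 0.77 in MCAD-/- and -0.22 to 0.26 in wild type mice given vehicle. These values describe the members as chosen and were not tested.

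No member passed between genotypes, with vehicle or with LPS. With vehicle, 0 of 9 tested members passed in limma, where 16.2% of all tested genes did, and 0 had groups that did not overlap, where 13.8% did. With LPS, 0 of 9 passed, where 20.6% of all tested genes did, and 0 had groups that did not overlap, where 12.8% did. At an unadjusted p under 0.05 the count was 0 in both comparisons too. The lowest unadjusted p was 0.0776 with vehicle, for B2m, and 0.0567 with LPS, for Tap1. Tap1 was 0.48 lower on the log2 scale in MCAD-/- than in wild type mice given LPS (95% interval -0.97 to 0.02, adjusted p = 0.163), with 3 of 5 MCAD-/- mice below all wild type mice. Tap2 under LPS differed by -0.31 (-0.64 to 0.03, adjusted p = 0.186). All 4 tested class II members had lower means in MCAD-/- than in wild type mice given LPS, with differences of -0.27 for H2-Aa to -0.53 for Cd74, and the 95% intervals of all 4 reached past 0. The lower ends of those intervals ran from -0.77 to -1.23. Nlrc5 with vehicle differed by 0.35 (-0.13 to 0.84, adjusted p = 0.342), and by 0.62 without wild type vehicle replicate 1 (adjusted p = 0.0184). The LPS response itself differed between genotypes for 0 of 9 members, where 4.11% of all tested genes passed, and for 0 at an unadjusted p under 0.05, Cd74 being lowest at 0.0561.

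Group means were set in order gene by gene. For Tap1 the mean was 6.76 ± 0.38 in MCAD-/- and 7.23 ± 0.32 in wild type mice given LPS, and 4.62 ± 0.37 in MCAD-/- and 4.98 ± 0.50 in wild type mice given vehicle (log2 units, SD, n = 5). Tap2, Tapbp and Nlrc5 likewise had both LPS groups above both vehicle groups, and so did H2-Ab1 of class II, at 5.04 ± 0.54 in MCAD-/- and 5.33 ± 0.17 in wild type mice given LPS, and 4.8 ± 0.43 in MCAD-/- and 4.64 ± 0.62 in wild type mice given vehicle. Within a treatment the genotypes did not pass. Groups that differ in both genotype and treatment were not compared. For H2-Aa the vehicle groups were the higher pair, at 5.63 ± 0.53 in MCAD-/- and 5.90 ± 0.26 in wild type mice given LPS, and 6.46 ± 0.36 in MCAD-/- and 6.51 ± 0.43 in wild type mice given vehicle. For Cd74 the highest and lowest means were both under LPS, 6.76 ± 0.54 in MCAD-/- and 7.29 ± 0.25 in wild type mice, with 7.22 ± 0.74 in MCAD-/- and 6.79 ± 0.67 in wild type mice given vehicle, and no comparison among them passed.

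Within groups, the class II members shared their highest mouse, and their lowest mouse only in part. In every group the same mouse was highest for all 4 tested class II members: replicate 3 among MCAD-/- mice given LPS, replicate 4 among wild type mice given LPS, replicate 2 among MCAD-/- mice given vehicle and replicate 1 among wild type mice given vehicle. MCAD-/- LPS replicate 1 and MCAD-/- vehicle replicate 5 were lowest for all 4. Among wild type mice the lowest mouse differed between members. With LPS it was replicate 5 for 3 members and replicate 2 for 1. With vehicle it was replicate 4 for 2 members, and replicates 2 and 3 for 1 each. In wild type vehicle replicate 3, Cd74 was lowest at 61.8 units, while H2-Aa, at 106 units, was exceeded only by replicate 1. Of the class I members, 4 of 5 were highest in wild type LPS replicate 4, which was also lowest for B2m, and 3 of 5 in MCAD-/- LPS replicate 5 and in wild type vehicle replicate 1. Wild type LPS replicate 4 is the array with the actin ratio of 3.69, the highest of all 20. Wild type vehicle replicate 3, with the next highest ratio of 3.18, was lowest of its group for 3 of 5 class I members, Tap1, Tap2 and Tapbp. It was also lowest for Cd74 and highest for B2m. The part of RNA quality in the values of these arrays was not tested. The pooled within-group SD of the class II members was 0.41 to 0.58 on the log2 scale, and that of the class I members 0.18 to 0.40, beside a median of 0.255 over all tested genes. Whether the spread of the classes differs was not tested.

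**Figure D3:**
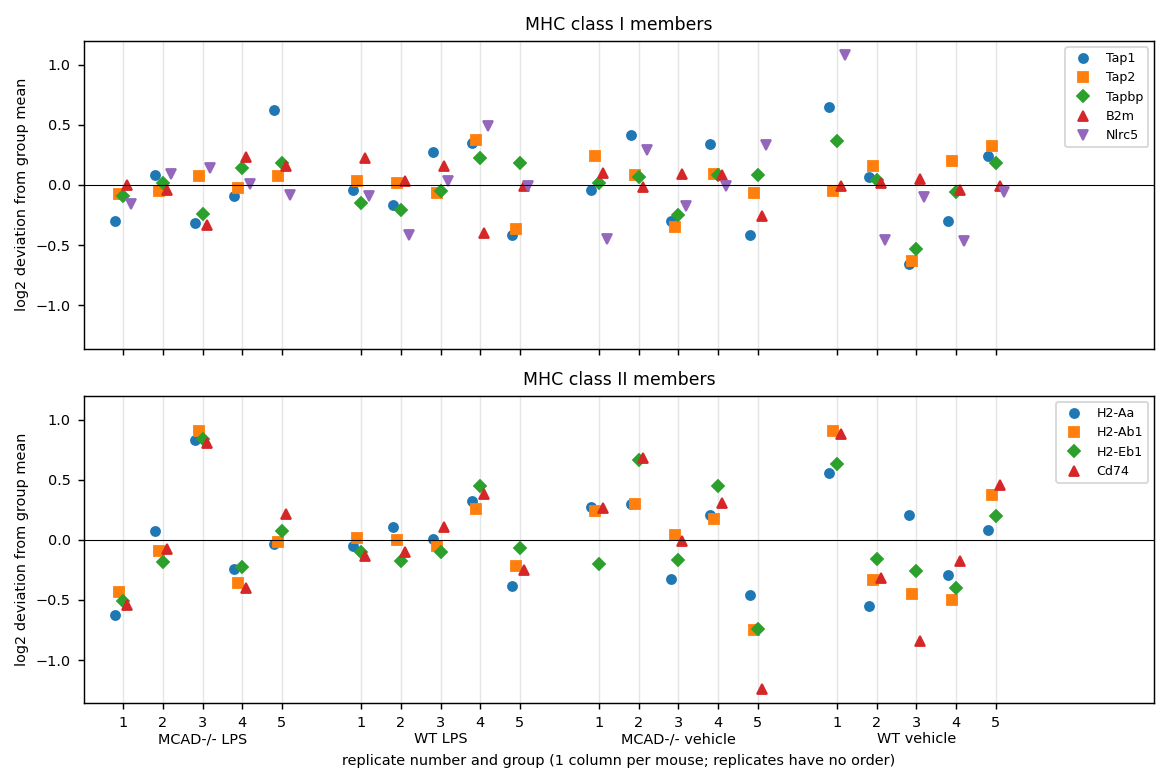
Each column is 1 mouse and each symbol 1 member, as the log2 deviation from that member's group mean, class I above and class II below. The 4 class II symbols lie close together in MCAD-/- LPS replicate 3, far above 0, while class I symbols scatter around 0 there.

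Markers of cells that carry class II were read in the same mice. The Kupffer and macrophage list had 9 of 12 genes tested, and its summed level was 614 to 1234 units in MCAD-/- and 529 to 1104 units in wild type mice given LPS, against 1716 to 2453 units in MCAD-/- and 952 to 1744 units in wild type mice given vehicle. With LPS 8 of the 9 were lower and 1 higher in MCAD-/- mice, and 6 were lower and 1 higher in wild type mice, where 27.6% of all tested genes were lower in MCAD-/- and 24% in wild type mice. The member that was higher in both genotypes was Marco, a scavenger receptor of macrophages. Its vehicle values all lay under 16 units, at 4.57 to 11.2 in MCAD-/- and 4.07 to 7.85 in wild type mice. Marco therefore passed the minimum only through mice given LPS. Among the lower ones, Vsig4, a complement receptor of resident macrophages, lay under 16 units in all 10 mice given LPS, at 4.70 to 9.95 units in MCAD-/- and 4.18 to 7.36 units in wild type mice, against 305 to 423 units in MCAD-/- and 108 to 247 units in wild type mice given vehicle. Counting the LPS mice at 16 units, Vsig4 was at least 22.7-fold lower in MCAD-/- and at least 9.37-fold lower in wild type mice (adjusted p of the limma fit 3.8e-14 and 4.88e-13). Vsig4 in turn passed the minimum only through vehicle mice. With vehicle, 6 of the 9 were higher in MCAD-/- than in wild type mice, where 9.81% of all tested genes were. Wild type vehicle replicate 1, highest for all 4 class II members, was highest for 7 of these 9 markers, and MCAD-/- vehicle replicate 5, lowest for all 4, was lowest for 6. MCAD-/- vehicle replicate 2, highest in class II, was highest for 4 of these markers and lowest for 1. With LPS, the highest mouse for all 9 markers among wild type mice was replicate 1 and not replicate 4. Among MCAD-/- mice given LPS, replicate 3, highest in class II, was highest for 3 of 9. Replicate 1 of that group, lowest in class II, was lowest for 2.

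The sinusoidal endothelium list had 9 of 10 genes tested, with a summed level of 762 to 1288 units in MCAD-/- and 906 to 1457 units in wild type mice given LPS, and 1669 to 2370 units in MCAD-/- and 510 to 1134 units in wild type mice given vehicle. With LPS 5 of its genes were lower and 2 higher in MCAD-/- mice, and 1 was lower and 5 higher in wild type mice. Of all tested genes, 27.6% were lower and 38.1% higher in MCAD-/-, and 24% lower and 40% higher in wild type mice. With vehicle, 8 of the 9 were higher in MCAD-/- than in wild type mice, where 9.81% of all tested genes were. For 5 of the 9 the LPS response was lower in MCAD-/- than in wild type mice, where 2.76% of all tested genes had a lower response. MCAD-/- LPS replicate 3, which stood highest of its group in class II, was lowest for 6 of these 9 markers. Replicate 1 of that group, lowest in class II, was highest for 5. With vehicle, MCAD-/- replicate 5, lowest in class II, was lowest for 5, and wild type replicate 1, highest in class II, was highest for 4. Wild type LPS replicate 4, highest in class II, was highest for 1 and lowest for 2. MCAD-/- vehicle replicate 2, highest in class II, was lowest for 1. Markers of dendritic cells, B cells, and T and NK cells had no tested gene: of 9, 8 and 10 named genes, 8, 7 and 9 were under 16 units on all arrays, and the highest readings anywhere were 17.0, 16.1 and 20.0 units. The defining markers Itgax, Cd79a and Cd3e never exceeded 5.30, 6.29 and 7.84 units. For neutrophils and monocytes 2 of 7 named genes were tested, S100a8 and S100a9, and both were higher with LPS in both genotypes. They exceeded 16 units on 12 and 13 arrays, and passed the minimum only through mice given LPS. Their being higher with LPS was thus partly built into which genes could be tested. Of 8 tested hepatocyte markers, 5 were lower and 1 higher with LPS in MCAD-/- mice, and 3 were lower and 1 higher in wild type mice. The shares over all tested genes were 27.6% and 24% lower and 38.1% and 40% higher in those genotypes. The part of these cell type markers in the members' values was not tested.

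The wider class I pathway, from lists chosen by function, was mostly higher with LPS. The list of peptide supply and loading includes general chaperones, which other pathways also use. Of 10 tested genes of peptide supply and loading, 9 were higher with LPS in each genotype and none lower, where 38.1% of all tested genes were higher in MCAD-/- and 40% in wild type mice, with median log2 changes of 1.07 in MCAD-/- and 1.05 in wild type mice. Psmb8, an immunoproteasome subunit, measured 656, 595, 590, 677 and 640 units in MCAD-/- mice given LPS against 90.1, 99.4, 102, 110 and 76.7 units with vehicle. Wild type mice had 661, 668, 622, 749 and 643 units with LPS against 80.8, 117, 64.6, 104 and 117 units with vehicle. It was 6.64-fold higher in MCAD-/- (adjusted p = 3.55e-12) and 7.09-fold higher in wild type mice (adjusted p = 2.29e-12). Psmb10, another immunoproteasome subunit, was 4.19-fold and Psme1, of the proteasome activator PA28, 2.09-fold higher in MCAD-/- mice, and they were 5.34-fold and 2.16-fold higher in wild type mice. The gene that did not pass was Erap1, the peptide-trimming aminopeptidase, in MCAD-/- mice and Canx, the chaperone calnexin, in wild type mice.

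Between genotypes 1 of these 10 genes passed. Psmb9, an immunoproteasome subunit and the neighbour of Tap1 in the RefSeq annotation, was lower in MCAD-/- mice under both treatments, where 11.8% of all tested genes were lower with LPS and 6.39% with vehicle. It measured 93.2, 96.7, 99.0, 109 and 194 units in MCAD-/- mice given LPS against 192, 231, 203, 182 and 123 units in wild type mice given LPS, overlapping through replicate 5 of each group. With vehicle it measured 23, 49.4, 27.9, 36.3 and 40.6 units in MCAD-/- mice against 62.1, 64.9, 57.7, 53.8 and 67.7 units in wild type mice, without overlap. Psmb9 differed by -0.68 with LPS (adjusted p = 0.0295) and by -0.84 with vehicle (adjusted p = 0.0107) on the log2 scale.

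Class I heavy chains, which pair with B2m, had 15 genes listed, 8 of them named on the array by a single symbol and 5 tested. With LPS 3 were higher and none lower in MCAD-/- mice, and 3 were higher and 1 lower in wild type mice, where 38.1% of all tested genes were higher in MCAD-/- and 40% in wild type mice. One of the 3 was H2-M3, a nonclassical chain, which lay under 16 units in all wild type mice, at 7.17 to 11.5 units with LPS and 5.94 to 8.20 units with vehicle. It passed the minimum through MCAD-/- mice alone, on 7 arrays, so its call in wild type mice rests on values near the floor. H2-D1 measured 6960 to 7590 units in MCAD-/- and 6950 to 7660 units in wild type mice given LPS, and 3260 to 4320 units in MCAD-/- and 2500 to 3030 units in wild type mice given vehicle. It was 1.98-fold higher with LPS in MCAD-/- and 2.62-fold higher in wild type mice (adjusted p = 7.2e-09 and 5.66e-11), and with vehicle it was 0.37 higher on the log2 scale in MCAD-/- than in wild type mice (adjusted p = 0.00505). H2-K1, the other classical chain, was 1.43-fold higher with LPS in MCAD-/- and 1.69-fold higher in wild type mice. Cd1d1, which presents lipids, was the lower one in wild type mice, at -0.77 (adjusted p = 0.000395), and measured -0.27 in MCAD-/- mice (adjusted p = 0.144). Between genotypes, 2 of the 5 were higher in MCAD-/- mice with vehicle, H2-D1 and H2-M3, where 9.81% of all tested genes were. With LPS 1 passed, H2-M3, again higher in MCAD-/- mice, where 20.6% of all tested genes passed in either direction. That H2-M3 was higher there was partly built into which genes could be tested, and no size is given. Heavy chains are close relatives, so a probe set for one may bind transcripts of another.

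The class II loading list held 10 genes, of which 5 were tested: proteases and a reductase that other pathways also use. The peptide exchange genes H2-DMa, H2-DMb2, H2-Oa and H2-Ob never exceeded 16 units, the highest of them reaching 10.2 units. Of the 5 tested, 2 were higher and 2 lower with LPS in MCAD-/- mice, and 3 were higher and 1 lower in wild type mice, where 38.1% and 40% of all tested genes were higher and 27.6% and 24% lower in those genotypes. Ifi30, the lysosomal thiol reductase, was lower in both, by -0.61 in MCAD-/- and -0.87 in wild type mice (adjusted p = 0.00135 and 4.43e-05). Lgmn, an asparaginyl endopeptidase, was higher by 1.02 and 1.46, and Ctsl, cathepsin L, by 0.54 and 0.60, in MCAD-/- and wild type mice. Ctss, the protease that trims the invariant chain, measured 374, 331, 425, 330 and 252 units in MCAD-/- mice given vehicle against 190, 126, 143, 125 and 133 units in wild type mice given vehicle. It was 1.25 higher on the log2 scale in MCAD-/- mice there (adjusted p = 0.000165). In that comparison 6 of 9 Kupffer markers and 8 of 9 endothelial markers were also higher. With LPS, Ctss was 0.575 higher in MCAD-/- than in wild type mice (adjusted p = 0.0464). There 0 of 9 Kupffer markers passed, and 2 of 9 endothelial markers were lower and 0 higher, where 20.6% of all tested genes passed. The part of these markers in the Ctss values was not tested.

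**Figure D4:**
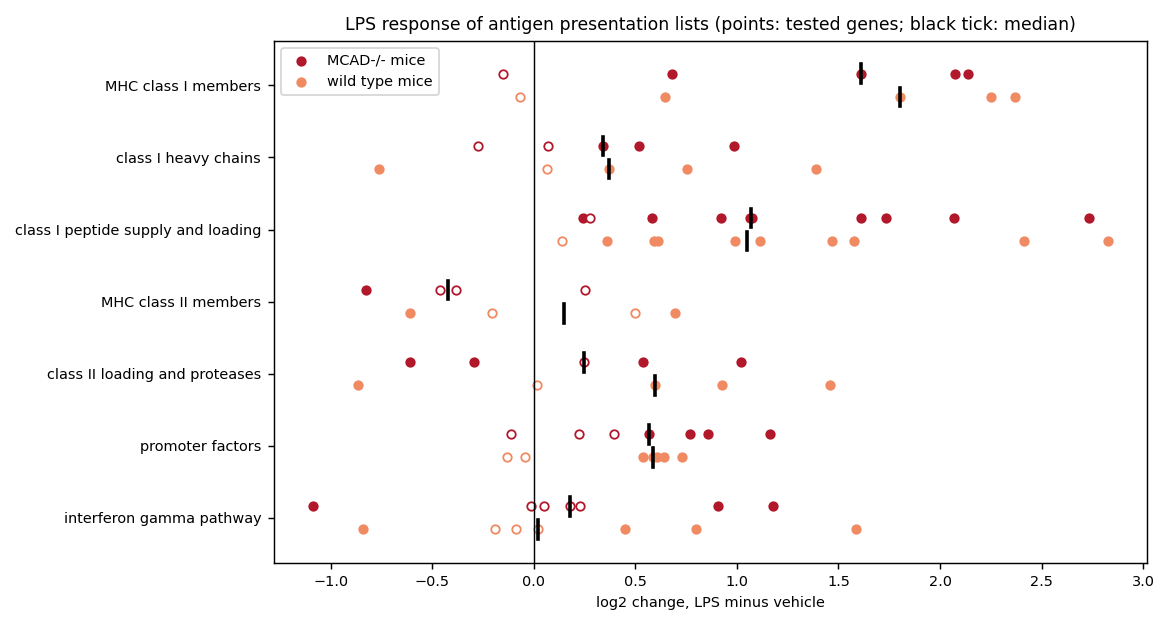
Each point is the log2 change of 1 tested gene with LPS (LPS minus vehicle), MCAD-/- above wild type in each list, filled where the adjusted p was under 0.05, with a black tick at the list's median. The class I members and their peptide supply genes lie mostly above 0, with medians of 1.05 to 1.80, while the class II members straddle it. Points of genes whose vehicle values lie under 16 units, such as Tap2 and Nfya in MCAD-/- mice, depend on the floor.

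Factors that bind the X and Y boxes were all 7 tested. With LPS 4 were higher in MCAD-/- and 5 in wild type mice, and none was lower, where 38.1% of all tested genes were higher in MCAD-/- and 40% in wild type mice, with medians of 0.57 in MCAD-/- and 0.59 in wild type mice. Rfx5, the DNA-binding subunit of the RFX complex, was higher by 0.77 and 0.59, and Nfyb by 1.16 and 0.73, in MCAD-/- and wild type mice. Nfya passed in both, at 17.6 to 24.7 units in MCAD-/- and 15 to 17.7 units in wild type mice given LPS, against 11.5 to 13.3 units in MCAD-/- and 8.32 to 16.2 units in wild type mice given vehicle, values mostly under 16 units from which no size is given. Nfyb and Nfya encode subunits of NF-Y, which binds the Y box. Of the interferon gamma pathway 7 of 10 genes were tested, and 2 were higher and 1 lower with LPS in MCAD-/- mice, 3 higher and 1 lower in wild type mice. Of all tested genes 38.1% were higher and 27.6% lower in MCAD-/- and 40% higher and 24% lower in wild type mice, so these counts are near the background. Irf1, a transcription factor that interferon gamma induces, was higher by 0.91 in MCAD-/- and 0.80 in wild type mice. Irf8, which is largely restricted to blood-derived cells, was higher by 1.18 in MCAD-/- mice, and it passed in wild type mice, where 4 of 5 vehicle values were under 16 units and no size is given. Irf2 was lower, at -1.09 in MCAD-/- and -0.84 in wild type mice. Ifng itself never exceeded 4.99 units.

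The genes with the values most like the class profiles were sought over all 20 mice, as the root mean square difference in log2 units from the mean centred profile of the class. The class I profile includes the vehicle values of Tap2 under 16 units. For class I these were Tpm3 at 0.127, Sf3b3 at 0.155, Fkbp1a at 0.166, Mre11a at 0.168 and Eftud2 at 0.190, where the median of all tested genes was 0.706. All 5 were higher with LPS in both genotypes, from 1.16 to 1.26 in MCAD-/- and from 1.14 to 1.5 in wild type mice. That follows from how they were picked, since the class I profile itself rose by 1.27 in MCAD-/- and 1.40 in wild type mice. The profile is a mean over members whose own changes differ. For class II they were Zfp524 at 0.256, Gga1 at 0.307, Tbc1d20 at 0.320, Slc25a28 at 0.321 and Smg6 at 0.322, where the median of all tested genes was 0.595. The nearest class II gene was thus farther from its profile than the fifth nearest class I gene was from its own. These genes share arrays and normalization with the members, and the likeness is a description over these mice.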

How the data were processed

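The deposited table holds 45101 probe sets on a linear intensity scale, 1 column per mouse; the intensity values were made by the authors with GCRMA, per the submitters' processing notes, which by design does background correction, quantile normalization and probe summary. The version and settings were not stated in the sources used here. Differences are therefore relative to each array as a whole, and dim probe sets are drawn towards a floor. Groups and replicate numbers came from the labels.

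By the platform's annotation, 34945 probe sets had 1 symbol, 932 had several and were not named, 9160 were not listed and are unnamed here, and 64 were controls. Each of 18193 genes took its brightest probe set by mean log2 value, and 8774 genes over 16 units on at least 5 arrays were tested. The log2 values, without a pseudocount, were fitted per gene in 1 model of 4 groups with limma 3.58.1 in R 4.3.3 (lmFit, eBayes, Benjamini-Hochberg over all tested genes, two-sided). The 5 comparisons were LPS against vehicle in each genotype, MCAD-/- against wild type under each treatment, and the interaction. The fit was tested on simulated data. Alternatives were the replicate block, no or a stricter minimum, the mean of or each other probe set, median centring, quantile normalization, a trended and robust prior, the compared groups alone, and arrays left out. The number of mice limits the precision.

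The members, the gene lists and the tests were chosen with earlier results of these data known. Named by rule were all members, up to 3 genes of each list with the smallest adjusted p in the comparison described, Acadm, and the 5 genes most like each class profile. Erap1, Canx and the marker, peptide exchange and interferon genes named for a low level were chosen after their values were seen. Lists are described by counts and medians and were not tested. Promoter sequences are RefSeq's, build GRCm38.p6, found for 5 of 10 members and 250 bases long. Over 30 pairs of same-numbered mice from different groups, the correlation of their deviations had a median of 0.018 and ranged from -0.121 to 0.284. Over 120 pairs with other numbers, the median was 0.001 and the range -0.346 to 0.243. The mice were treated as unpaired. Whether a litter or batch lies behind the numbers is not known from the sources used here.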

Additional observations from a re-analysis of the deposited data

Results flagged for a closer look

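Dixon's test was applied to the 40 sets of 5 mice (10 members in 4 groups), and 5 sets held a mouse apart from the other 4, where chance gives about 1 in 20. Tapbp was low in MCAD-/- vehicle replicate 3, at 447 units. Nlrc5 was high in wild type vehicle replicate 1, at 71.2 units. H2-Ab1 was low in MCAD-/- vehicle replicate 5, at 16.5 units, just above the 16 units where the floor begins to matter, and all 4 tested class II members were lowest in that mouse. H2-Eb1 was high in wild type LPS replicate 4, at 47.6 units, the array with the highest actin ratio. Ciita was low in MCAD-/- LPS replicate 5, at 2.43 units, where readings under 16 units carry no order.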

How the results depend on the processing

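Of 45 member results (9 tested members in 5 comparisons), 38 kept their side of the threshold under every alternative run, and 4 lost and 3 gained a call under at least 1. None of the 11 called results changed sign, while 9 uncalled ones did under at least 1 alternative. Tap1, Tap2 and Tapbp stayed past the threshold for LPS in both genotypes under all of them, and Nlrc5 and H2-Aa in MCAD-/- mice did except that H2-Aa was lost with the mean of probe sets. Tap1 could not be run with that mean, and Tap2, H2-Ab1 and H2-Eb1 could not with a minimum of 64 units, since they fell under it. The class II members called for LPS in wild type mice, 2 as reported, were 1 with a minimum of 64 units, 0 with the mean of probe sets, 1 after a further quantile normalization and 0 without the 2 arrays of highest actin ratio, an alternative chosen after seeing the data, with 0 to 2 when each mouse was left out in turn. In MCAD-/- mice the count of 1 was 0 with the mean of probe sets and 1 to 2 with each mouse left out. Class I counts were 4 in MCAD-/- and 3 to 4 in wild type mice with each mouse left out, and 3 in wild type mice without the 2 arrays, where Nlrc5 was 0.50 (adjusted p = 0.103). Nlrc5 in wild type mice was also lost after quantile normalization (adjusted p = 0.0909) and in a fit of the compared groups alone (adjusted p = 0.0588). H2-Aa in wild type mice was lost with its second probe set (-0.48, adjusted p = 0.0931). The cause of these changes was not tested. Of all tested genes, the interaction was called for 361, for 236 of the fewer genes over 64 units, and for 262 to 468 with each mouse left out. With the replicate number as a block, 5796 genes were called for LPS in MCAD-/- and 5619 in wild type mice, 1845 for genotype with LPS, 1397 with vehicle and 384 for the interaction, and no member's call changed.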
